A study of Mus musculus with 3 samples.

Results

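Genes for histone-modifying enzymes were examined in cultured mouse astrocytes. The members were chosen by name alone: rows of the deposited table whose symbol begins with Kdm, Kmt, Hdac, Sirt, Kat, Setd, Nsd, Prmt or Ezh followed by a digit, without 3 genes of the X and Y chromosomes, Kdm5c, Kdm5d and Kdm6a. This left 70 genes of 19471, placed in 14 enzyme classes. RNA came from cortical astrocytes of wild-type (WT) pups at postnatal day 1 that were cultured for 7 days, in 3 poly(A) libraries from pups 5, 6 and 8, called replicates 1, 2 and 3; values listed for a gene follow that order. The age is P1 in the titles, whereas the sample descriptions say P0. They form 1 group with no treatment, second genotype or second age, so genes were compared within a library and libraries with each other. The series asks how the histone H2B variant H2BE acts by age and cell type, and these libraries hold no contrast for H2BE.

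Histone-modifying enzymes add or remove small chemical groups on the tails of histones. Acetyltransferases place acetyl groups on lysines, which loosens chromatin and marks active promoters and enhancers, and deacetylases remove them, either with a zinc ion or, in the sirtuins, with NAD. Methyltransferases and demethylases act on lysines whose methylation marks active genes (H3K4, H3K36) or silent genes (H3K9, H3K27, H4K20), and arginine methyltransferases act on arginines of histones and of many other proteins.

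The libraries held 9858626 to 25128038 reads, of which the 70 genes took 0.451% to 0.471%. Values are the authors' normalized read counts. Levels of different genes are compared per kilobase (kb) of exon, since long transcripts give more reads. Every gene with a mean of 10 or more is called detected. All 12 astrocyte markers were detected and summed to 169481, 169871 and 149908 normalized counts in replicates 1, 2 and 3, with Gfap, the intermediate filament of astrocytes, the highest. The cultures also held transcripts of other cells: all 12 microglial markers (36548, 27898 and 24944) and all 7 ependymal markers (14492, 10559 and 12482) were detected. Of 10 neuronal markers 6 were detected and the vesicular glutamate transporter gene Slc17a7 averaged 0.786, of 5 endothelial markers 3 were, and of 7 mural markers 5 were, with a sum of 49408, 49584 and 50571 that was highest for Acta2. In bulk RNA a gene expressed by few cells and a gene expressed weakly by many cannot be told apart.

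Of the 70 genes, 68 were detected, 65 averaged at least 100 normalized counts and 21 at least 1000. The exceptions were Kdm4d at 6.51, 9.43 and 7.17 and its near copy Kdm4dl at 2.44, 0.943 and 0.00 normalized counts. A count of 0 allows up to 3 reads, which is 2.44, 1.42 and 3.59 normalized counts in replicates 1, 2 and 3, so Kdm4dl lay within that limit in each library. Each detected gene was then placed against the median detected gene of the same library, per kb of exon, with limma and Benjamini-Hochberg adjustment over 13902 genes. Of the 68 enzyme genes, 31 were called above the median gene and 28 below (adjusted p under 0.05). Among all genes tested 45.7% were above and 45.1% below, against 45.6% and 41.2% of the enzymes, so as a whole the enzyme genes were spread like other expressed genes. The median of the 68 was 6.22 ± 0.04 on the log2 per-kb scale (SD over 3 libraries), 0.05 from the median of all detected genes.

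**Figure D1:**
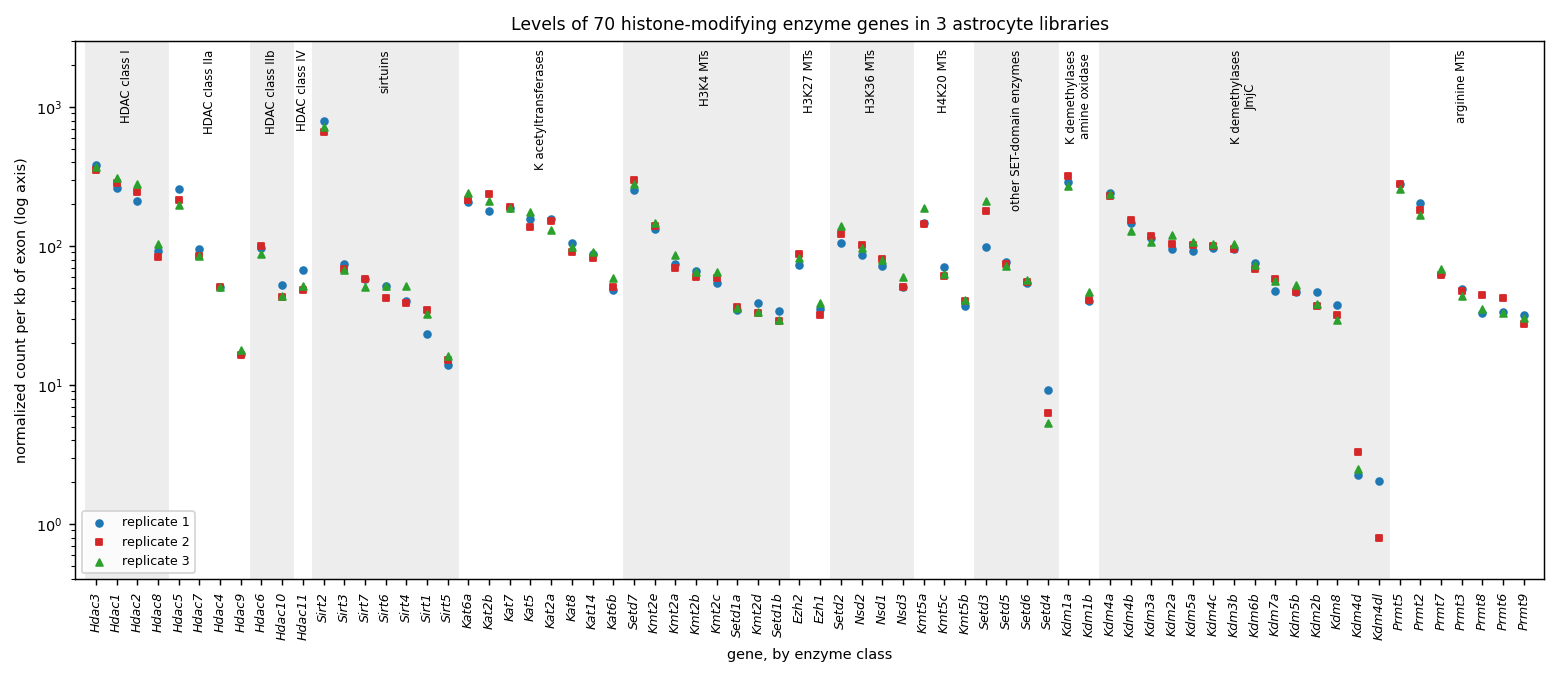
Normalized count per kb of exon (log axis) of the 70 enzyme genes, grouped by class and ordered by mean within a class, with 1 symbol per library. Sirt2 is the highest at 658 to 796, the symbols of most genes lie close together, and Kdm4d and Kdm4dl lie lowest; Kdm4dl had no read in replicate 3 and that point is not drawn.

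The classes differed more than the whole did. Of the 14 class medians 5 lay above the median of all detected genes: HDAC class I by 1.88 on the log2 scale, the lysine acetyltransferases by 1.07, the amine oxidase demethylases by 0.64, the JmjC demethylases by 0.45 and the H3K36 methyltransferases by 0.25. These 5 kept that side when reads were not divided by length and when the longest transcript gave the length. The sirtuins at -0.55, the arginine methyltransferases at -0.60, Hdac11 alone in class IV at -0.37 and HDAC class IIb at -0.11 lay below it under the same settings. The remaining 5 classes changed side with the length used. The amine oxidase demethylases and HDAC class IIb have 2 members each, 1 called above the median gene and 1 below. Their medians are therefore midpoints between genes on opposite sides. Differences between classes were not tested.

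Class I deacetylases, the catalytic subunits of the nuclear corepressor complexes, had the highest class median per kb, 1.88 above that of all detected genes. By reads it was 1.58, below the 1.94 of the H3K36 methyltransferases. All 4 members were called above the median gene, where 45.7% of all genes were. Hdac3, which works with the NCoR and SMRT corepressors, had normalized counts of 1542, 1427 and 1503. Per kb it stood at 368 ± 14.4 (SD, n = 3), or 2.36 ± 0.07 (SE) above the median gene on the log2 scale (adjusted p = 2.03e-11, limma). Hdac1 and Hdac2, the paired subunits of the Sin3, NuRD and CoREST complexes, stood at 286 ± 23.8 and 246 ± 35.1 per kb. The 2 differed little: the log2 difference was 0.31, 0.22 and 0.14 in replicates 1, 2 and 3 in favour of Hdac1, and it turned to -0.15 when reads were not divided by length. Hdac1 also shares 35.3% of its 50-base stretches with processed copies such as Gm10093, which held 79.3 ± 18.7 normalized counts, so its level is uncertain. Hdac8 was the lowest of the class at 93.1 ± 10.4 per kb and was called 0.37 ± 0.09 above the median gene (adjusted p = 0.00236, limma), a call that ended with separate variances. Hdac3 exceeded it 3.96-fold, a log2 difference of 1.98 ± 0.13 that was 1.07 with the longest transcript.

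Class IIa deacetylases shuttle between nucleus and cytoplasm and bind MEF2 factors, and 1 member stood far above the others. Hdac5 had normalized counts of 2259, 1894 and 1747, highest in replicate 1. Per kb it stood at 224 ± 30, which was 1.64 ± 0.09 above the median gene (adjusted p = 2.33e-09, limma) and made up 58.8% ± 2.34 (SD, n = 3) of the class total per kb. Hdac7 followed at 88.2 ± 6.70, with a call above the median gene that ended without replicate 1 and with separate variances, and Hdac4 at 51.0 ± 0.214 was nearly equal in the 3 libraries, with 802, 807 and 808 normalized counts. Genes on the other strand overlap 22.4% of Hdac4 exon bases; the library kit was stranded, but the counting's strand setting is not given here. Hdac9 was the lowest of the zinc-dependent deacetylases per kb at 17.1 ± 0.711, -2.06 ± 0.10 from the median gene (adjusted p = 8.05e-10, limma). By reads it lay -0.46 from the median gene, and Hdac10 (-1.15) and Hdac11 (-0.70) lay lower. Within pairs, Hdac5 exceeded Hdac4 4.37-fold and Hdac7 exceeded Hdac9 5.13-fold, in 3 of 3 libraries each. By reads these log2 differences shrank from -2.13 ± 0.20 to -1.28 for Hdac4 minus Hdac5 and from 2.36 ± 0.14 to 1.24 for Hdac7 minus Hdac9.

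Of class IIb, the cytoplasmic tubulin deacetylase gene Hdac6 stood at 94.7 ± 5.95 per kb, 0.40 ± 0.09 above the median gene (adjusted p = 0.000731, limma). With the longest transcript as length that call ended. Hdac10, a polyamine deacetylase, stood at 46.2 ± 5.28 and was called -0.63 ± 0.11 from the median gene (adjusted p = 0.000215, limma). Hdac11 of class IV, which removes fatty acyl groups, had 257, 187 and 199, so replicate 1 was apart. Its level of 55.6 ± 9.77 per kb lay -0.37 ± 0.12 from the median gene (adjusted p = 0.00943, limma), a call that ended with separate variances and without replicate 2, where the difference was -0.28.

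Sirtuins, the NAD-dependent deacylases, were unevenly expressed. Sirt2, a mainly cytoplasmic deacetylase of tubulin known for its abundance in myelinating oligodendrocytes, was the highest of the 70 genes. Its normalized counts were 4009.9, 3312 and 3603, highest in replicate 1 and lowest in replicate 2. Per kb it reached 723 ± 69.6, rank 724 of 13902 genes, 3.33 ± 0.08 above the median gene (adjusted p = 1.23e-12, limma), and it gave 73.2% ± 1.80 of the sirtuin total per kb. The oligodendrocyte markers summed to 5945, 5142 and 5564 in replicates 1, 2 and 3, the same order. Most of that sum was Cnp, 3 of the 5 markers in the table were detected, and Mobp stood at 1.41. The ependymal sum, given above, had the order of Sirt2 too. The oligodendrocyte precursor markers did not: they summed to 7817, 8877 and 6390, highest in replicate 2. The part of any of these cells in the Sirt2 level was not tested.

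The other 6 sirtuin genes lay at or below the median gene, and 5 of them were called below it, where 45.1% of all genes were. Sirt3, the main mitochondrial deacetylase, stood at 70.3 ± 3.79 per kb and was not called. Sirt7 of the nucleolus and Sirt6 of nuclear chromatin stood at 55.4 ± 3.93 and 48.8 ± 5.46. Their difference changed sign between libraries, with Sirt6 minus Sirt7 at -0.14, -0.44 and 0.03, the only pair of 23 that did so, and by reads it was -1.07. Sirt4, also mitochondrial, stood at 43.7 ± 7.15. Sirt1, the nuclear deacetylase of p53 and other factors, had only 124, 184 and 173, or 30.2 ± 5.99 per kb, and replicate 1 was the lowest. Sirt5, a mitochondrial desuccinylase, was the lowest per kb at 15.1 ± 1.20, -2.23 ± 0.13 from the median gene (adjusted p = 4.81e-09, limma), with 13.9% of its 50-base stretches shared with other genes.

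**Figure D2:**
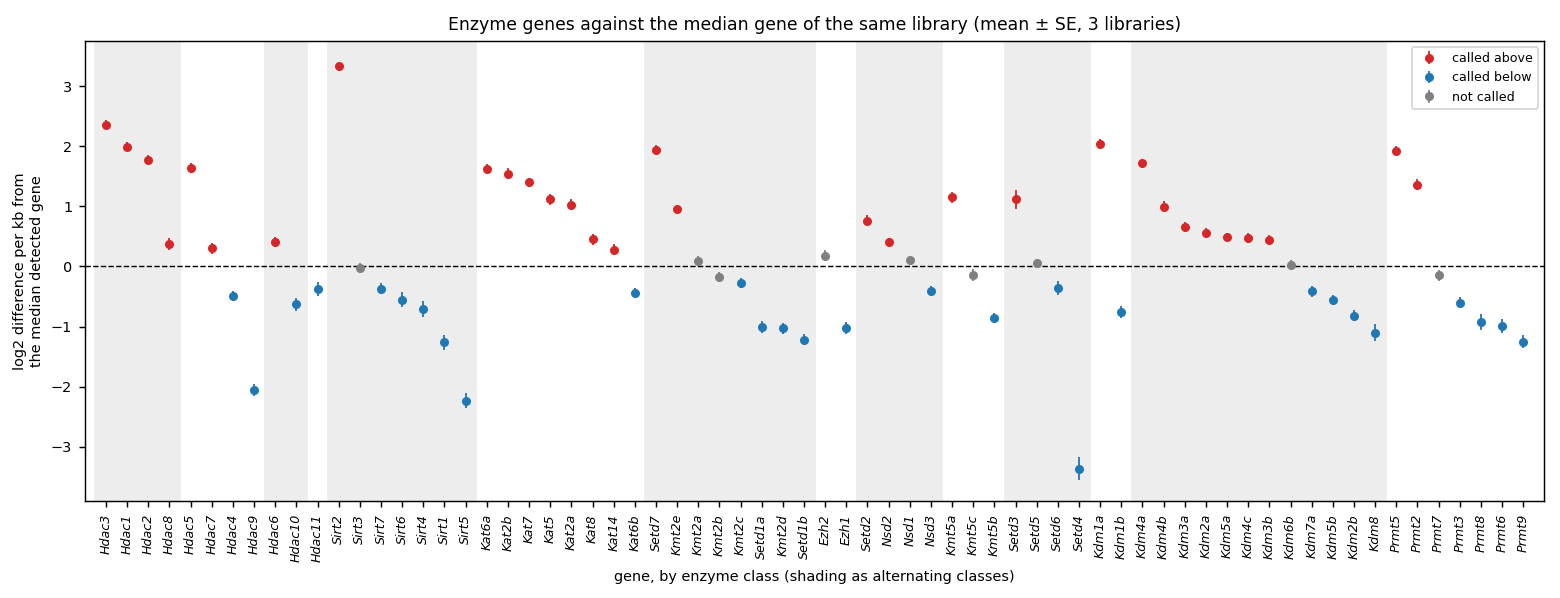
Log2 difference per kb of exon between each of 68 enzyme genes and the median detected gene of the same library, mean and SE over 3 libraries, coloured by the limma call and shaded by alternate class. All 4 class I deacetylases and 7 of 8 lysine acetyltransferases are called above the line, and 5 of 7 sirtuins below it. Of all genes tested, 45.7% are called above and 45.1% below.

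RefSeq promoter windows on GRCm38.p6 (mm10), which run from 250 bases before to 50 after a gene start, were matched for 54 of the 70 genes, in 75 windows. They held a median of 22 CpG dinucleotides, against 20 in windows of detected genes and 7 in all 32851 windows. At least 10 CpG were present in 85.3% of the members' windows, against 77.7% and 43.5%. The stretches below are examples from the most abundant sirtuin, the gene that differed most between libraries and the zinc-dependent deacetylase that was lowest per kb. They lie upstream of the start and outside annotated exons, and capitals mark each CpG (CG reads the same on both strands). The start is that of the RefSeq window, which can differ from the GENCODE gene start used for Setd3 and Ccnk further on.
Sirt2, chr7:28766641-28766734, plus strand, ending 17 bases before the start: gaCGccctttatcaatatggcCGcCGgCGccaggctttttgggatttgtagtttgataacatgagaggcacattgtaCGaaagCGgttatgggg
Setd3, chr12:108179315-108179534, minus strand, ending 30 bases before the start: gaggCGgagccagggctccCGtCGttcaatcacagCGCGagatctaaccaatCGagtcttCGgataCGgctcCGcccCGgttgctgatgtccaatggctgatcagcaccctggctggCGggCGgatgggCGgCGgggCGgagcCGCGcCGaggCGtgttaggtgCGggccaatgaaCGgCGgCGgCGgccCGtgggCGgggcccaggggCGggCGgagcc
Hdac9, chr12:34917096-34917345, minus strand, ending at the start: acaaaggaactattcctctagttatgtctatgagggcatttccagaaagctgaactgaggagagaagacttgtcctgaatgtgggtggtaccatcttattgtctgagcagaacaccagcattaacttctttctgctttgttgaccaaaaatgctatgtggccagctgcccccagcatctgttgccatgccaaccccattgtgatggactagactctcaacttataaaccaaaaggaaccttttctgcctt
The Setd3 stretch of 220 bases held 28 CpG, the Sirt2 stretch of 94 bases held 6 and the Hdac9 stretch of 250 bases held none. The lengths differ because exons were left out. In 300 bases, the whole Sirt2 window held 16 CpG and the other Hdac9 window held 3. The windows of Setd4, the lowest detected member, and of Hdac8, called above the median gene, held 29 and 6. Whether CpG number goes with level was not tested.

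Of the lysine acetyltransferases 7 of 8 were called above the median gene and 1 below it, against 45.7% and 45.1% of all genes. Kat6a, a MYST-family enzyme that acetylates H3, had normalized counts of 1917, 1958 and 2216. It stood at 221 ± 17.6 per kb, 1.62 ± 0.08 above the median gene (adjusted p = 7.6e-10, limma). Kat2b followed at 210.2 ± 28.9. Kat2a, its alternative as the acetyltransferase of the SAGA and ATAC complexes, stood at 146 ± 13.8, below Kat7 and Kat5. Kat2b was the higher in 3 of 3 libraries, though the log2 difference of Kat2a from Kat2b ran from -0.21 in replicate 1 to -0.70 in replicate 3. Kat7, which acetylates H3K14, was among the steadiest members, with 1035, 1060.4 and 1039 normalized counts or 189 ± 2.49 per kb. Kat5, the catalytic subunit of the NuA4 complex, stood at 156 ± 19.8, and Kat8, which acetylates H4K16, at 97.8 ± 7.19, so Kat5 was 1.59-fold higher. Kat14 of the ATAC complex stood at 86.9 ± 4.91, with 14.7% of its exon bases shared with Pet117, and its call above the median gene ended with the longest transcript. Kat6b was the lowest per kb at 52.8 ± 5.62, -0.45 ± 0.08 from the median gene (adjusted p = 0.000307, limma). Kat6a exceeded it 4.19-fold, with a log2 difference of 2.11, 2.06 and 2.03 in the 3 libraries, but the mean difference was 0.95 with the longest transcript and 1.19 by reads. Without division by length Kat6b lay 1.35 above the median gene, and with the longest transcript 0.23 above.

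Among H3K4 methyltransferases the highest was Setd7, a monomethyltransferase that also acts on many other proteins. Its normalized counts were 2730.5, 3225 and 3016, lowest in replicate 1. The per-kb level of 277 ± 22.9 was 1.94 ± 0.07 above the median gene (adjusted p = 1.16e-10, limma). Kmt2e, placed in this class by its Kmt2 name, stood at 139 ± 7.30 and was the other member called above. Whether its protein methylates H3K4 was not tested. The catalytic subunits of the COMPASS complexes were lower per kb. Kmt2a and Kmt2b, which act with menin at promoters, stood at 76.6 ± 8.34 and 63.6 ± 3.25 and were not called. Kmt2c and Kmt2d, the enhancer monomethyltransferases, stood at 59.3 ± 5.57 and 35.2 ± 3.45 and were both called below, Kmt2c being 1.68-fold higher. The Kmt2c call ended with separate variances. Setd1a and Setd1b, which place most H3K4 trimethylation, stood at 35.5 ± 0.812 and 30.9 ± 2.72. The lowest per kb, Setd1b, lay -1.22 ± 0.09 from the median gene (adjusted p = 8.34e-08, limma). The order of these 2 turned when the longest transcript gave the length (-0.17 on the log2 scale), and 51.8% of Setd1a exon bases are also annotated to Gm49388 on the same strand, so its level is uncertain.

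Several members have long transcripts, and their place depended on the division by length. The median exon length was 5985 bases in the detected members and 4469 in all detected genes. When reads were not divided by length, 46 members were above the median gene and 20 below it, where 45.4% and 45.6% of all genes were. There were 9 genes called below per kb and above by reads (Nsd3, Kmt2c, Kmt2d, Kmt5b, Hdac4, Kat6b, Kdm7a, Kdm5b and Kdm2b), with exon lengths of 10057 to 20291 bases. Kmt2d, for example, had 781, 656 and 668 normalized counts, 1.02 above the median gene by reads and -1.03 from it per kb. Only Kat8, with 2891 bases, was called the other way round. The highest and lowest members of a class are named here per kb of exon, and several change with the length. By reads Nsd2 and Kdm2a lead their classes, Setd5 exceeds Setd3, and Setd1a, Kmt5c, Kat8 and Prmt8 are the lowest of theirs. With the longest transcript Hdac1, Kat7 and Nsd2 lead their classes, and Kmt2d, Kmt5c, Kat14, Prmt8 and Sirt1 are the lowest. Sirt2 is the highest of the detected members and Setd4 the lowest under all 3 settings.

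**Figure D3:**
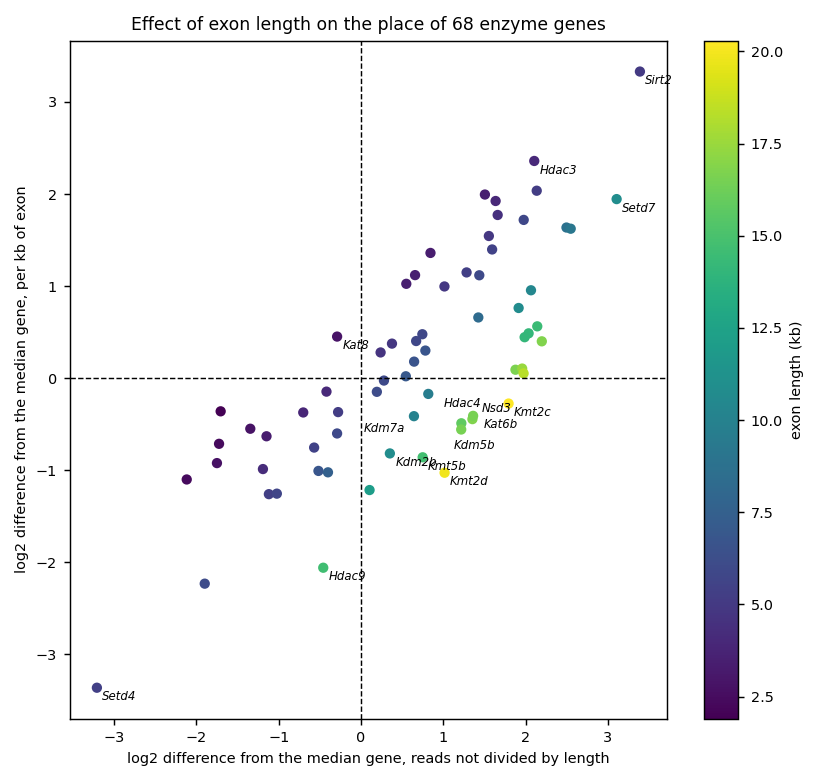
Log2 difference of 68 enzyme genes from the median detected gene, by reads not divided by length (horizontal axis) and per kb of exon (vertical axis), coloured by exon length. The 9 labelled long genes at the lower right are called above by reads and below per kb, and Sirt2 is high on both axes.

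Of the enzymes of H3K27, Ezh2, the catalytic subunit of Polycomb repressive complex PRC2 in dividing cells, exceeded its relative Ezh1. Ezh2 had normalized counts of 489, 586 and 552 and Ezh1 of 261, 237 and 288, without overlap. Per kb Ezh2 was 2.30-fold higher, with Ezh1 minus Ezh2 at -1.06, -1.46 and -1.09 in the 3 libraries. Ezh2 lay 0.18 ± 0.09 from the median gene (adjusted p = 0.0714, limma) and Ezh1 -1.02 ± 0.10 (adjusted p = 8.24e-07, limma). The place of Ezh2 depended on the length and on 1 library. It was called 0.98 above the median gene when the longest transcript gave the length and 0.24 above without replicate 1. The markers of dividing cells summed to 11476, 13194 and 13917, lowest in replicate 1 like Ezh2, and their part in its level was not tested. Kdm6b, an H3K27 demethylase, stood at 72.6 ± 3.56 per kb.

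Of the H3K36 methyltransferases Setd2 was the highest per kb of all exons, whereas Nsd2 was higher by reads (1592 against 1315 normalized counts on average) and with the longest transcript. Setd2, which alone places H3K36 trimethylation along transcribed genes, stood at 122 ± 17.1 per kb, 0.76 ± 0.09 above the median gene (adjusted p = 3.61e-06, limma). Its normalized counts were 1135, 1307 and 1503. The dimethyltransferase genes Nsd2, Nsd1 and Nsd3 stood at 94.7 ± 7.56, 77.1 ± 4.84 and 54.1 ± 5.30, with Nsd2 above Nsd1 by 0.27 to 0.34 on the log2 scale. Nsd3 was called -0.41 ± 0.08 from the median gene (adjusted p = 0.000534, limma), and by reads alone it lay 1.36 above. With the longest transcript as length Nsd3 lay -0.16 from the median gene and that call ended.

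Kmt5a led the H4K20 enzymes. This monomethyltransferase, whose protein peaks around mitosis, had 777, 767 and 1002, with replicate 3 apart from the others. Its level of 159.9 ± 25 per kb lay 1.15 ± 0.09 above the median gene (adjusted p = 1.32e-07, limma). Kmt5b and Kmt5c, which add further methyl groups, stood at 39.5 ± 2.03 and 64.6 ± 4.86. The order of these 2 depended on the length: Kmt5b minus Kmt5c was -0.71 ± 0.18 (SD) per kb of all exons, 0.03 with the longest transcript and 1.17 by reads. Kmt5b lay -0.86 ± 0.08 from the median gene (adjusted p = 7.13e-07, limma), a call that ended with the longest transcript.

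Demethylases of the amine oxidase type contrasted sharply. Kdm1a, the LSD1 subunit of the CoREST complex that demethylates H3K4, had normalized counts of 1506, 1663 and 1406. It stood at 294 ± 25 per kb, 2.04 ± 0.08 above the median gene (adjusted p = 1.29e-10, limma), the highest demethylase per kb. Kdm1b stood at 42.4 ± 3.62, -0.75 ± 0.10 from it (adjusted p = 1.48e-05, limma). The 6.92-fold difference, 2.79 ± 0.23 on the log2 scale (SD, n = 3), was the largest of the 23 pairs compared, and it was 3.42 with the longest transcript.

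JmjC demethylases, which use iron and oxoglutarate, ranged from abundant to near 0, with 7 of 12 tested members called above the median gene and 4 below it, where 45.7% and 45.1% of all genes were. Kdm4a, which acts on H3K9 and H3K36, had 1388, 1323 and 1380.0 normalized counts, nearly level, and led the class per kb but not by reads, where Kdm2a was the highest. It stood at 236 ± 6.18 per kb, 1.72 ± 0.07 above the median gene (adjusted p = 3.91e-10, limma). Its relatives Kdm4b and Kdm4c stood at 143 ± 12.6 and 99.6 ± 3.15, whereas Kdm4d and Kdm4dl were under the detection limit at 2.69 and 0.950. The H3K9 demethylase genes Kdm3a and Kdm3b stood at 113 ± 5.43 and 97.6 ± 4.72, an order that turned when the longest transcript gave the length (-0.17) and by reads (-0.56). Kdm2a, an H3K36 demethylase with a CpG-binding domain, stood at 106 ± 12.6 and its relative Kdm2b, a subunit of a Polycomb complex, at 40.8 ± 5.05. Of the H3K4 demethylases, Kdm5a at 101 ± 7.48 was 2.06-fold above Kdm5b at 48.7 ± 3.25. Kdm7a, which acts on H3K9 and H3K27, stood at 53.9 ± 5.32. Kdm8 was the lowest tested at 33.2 ± 4.22, -1.10 ± 0.14 from the median gene (adjusted p = 8.64e-06, limma).

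Of the arginine methyltransferases 2 of 7 were called above the median gene and 4 below it, against 45.7% and 45.1% of all genes. Prmt5, the main enzyme of symmetric dimethylation, had 1098, 1115 and 1018. The level of 272 ± 13.1 per kb was 1.92 ± 0.08 above the median gene (adjusted p = 2.01e-10, limma) and gave 40.5% ± 0.415 of the class total per kb. Prmt2, a coactivator of nuclear receptors, followed at 184 ± 17.2. Prmt7, a monomethyltransferase, at 64.5 ± 3.17 was not called. Prmt3, which methylates a ribosomal protein, stood at 47.1 ± 2.78, and Prmt6, which methylates H3 arginines, at 36.2 ± 5.39. The brain-enriched, membrane-bound enzyme gene Prmt8 stood at 37.7 ± 5.99, close to Prmt6. Prmt9, which methylates a splicing factor, was the lowest per kb at 29.9 ± 2.26, -1.26 ± 0.11 from the median gene (adjusted p = 2.42e-07, limma), and Prmt7 exceeded it 2.15-fold. Prmt1 was not analysed here.

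A further 4 SET-domain genes completed the set. Setd3, whose protein methylates a histidine of actin, stood at 163 ± 58.6 per kb with a wide spread, 1.12 ± 0.16 above the median gene (adjusted p = 2.53e-05, limma), a call that ended with separate variances. Setd5 stood at 74.3 ± 2.60 and was not called, and Setd6, which methylates an NF-kB subunit, stood at 55.3 ± 1.36. Setd4 was the lowest detected member at 49.6, 34.0 and 28.7 normalized counts, or 6.96 ± 2.02 per kb, -3.36 ± 0.20 from the median gene (adjusted p = 6.42e-09, limma).

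**Figure D4:**
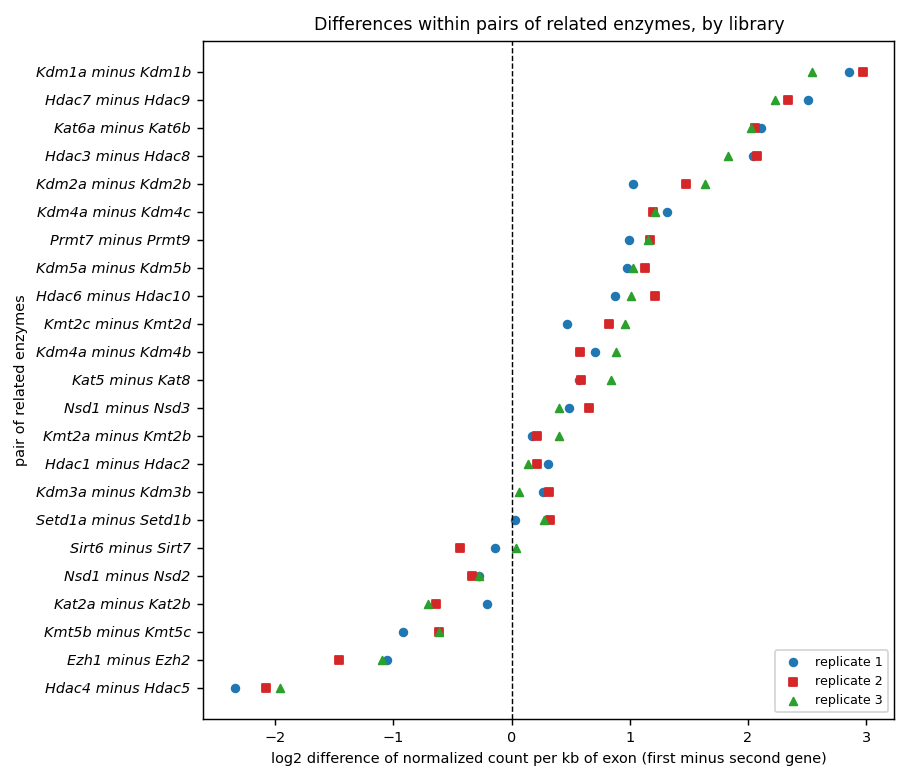
Log2 difference of normalized count per kb of exon within 23 pairs of related enzymes, first gene minus second, with 1 symbol per library. Symbols lie on 1 side of 0 in 22 pairs, Kdm1a minus Kdm1b is the largest difference and Sirt6 minus Sirt7 crosses 0.

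Over the 23 pairs, 22 had the same sign in 3 of 3 libraries and 8 differed by more than 2-fold in each of them. An exact sign-flip test over 3 libraries cannot give a p below 0.25, so the pairs are described by their values and SDs.

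Between the libraries most members differed little. Among the 65 members with a mean of 100 or more, the highest library was under 1.5 times the lowest in 64, and the median SD of log2 values was 0.12, against 0.14 over 10571 genes of that level. Against read sampling alone, the reads of 37 of the 68 tested members, or 54.4%, differed between libraries (chi-square test on recovered reads, adjusted p under 0.05 over 13941 genes). The background was 55.4%, close to the share of members. Leaving out replicate 1 left 24 members called, of which 21 were among the 37, where the background was 35.8%. The least variable were Hdac4 and Kat7, described above, and Setd1a at 235, 246 and 243 and Setd6 at 102, 106 and 108.

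Setd3 stood apart from the other members. Its normalized counts were 594, 1084 and 1281, so replicate 1 held less than each of the others and the highest was 2.16 times the lowest. The SD of its log2 values was 0.58, larger than in 99.8% of genes with a mean between 0.5 and 2 times its own, and its reads differed between libraries with an adjusted p of 1.79e-59 in the chi-square test. Without replicate 1 the adjusted p was 2.53e-05 in the same test. In mm10 Setd3 lies on chromosome 12, 108106431 to 108179314 on the minus strand, and 264 bases separate its start from that of Ccnk on the other strand. Ccnk, a cyclin gene of transcription elongation, had 491, 527 and 606 normalized counts in replicates 1, 2 and 3, the same order with a smaller range (adjusted p = 0.00589, chi-square test). Setd3 shares 16.4% of its 50-base stretches with processed copies, of which Gm14026 held 6.51, 3.30 and 0.00 and Gm7114 no more than 0.813 normalized counts. Xist, the RNA of the inactive X chromosome, stood at 3000.5, 0.472 and 4.78, and whether sex or another feature of replicate 1 bears on Setd3 was not tested.

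Smaller differences were seen in Sirt1 (adjusted p = 0.000843), Hdac11 (0.000132), Kmt5a (1.9e-09), Hdac2 (3.12e-09), Setd2 (1.57e-10), Kat2b (2.89e-11) and Hdac5 (2.12e-18), all in the chi-square test. Sirt2 and Setd7 also differed (adjusted p = 1.19e-25 and 2.97e-11, chi-square test), with smaller SDs of log2 values, 0.14 and 0.12. Prmt8 at 90.3, 121 and 96.9 and Prmt6 at 139.9, 178 and 138 were highest in replicate 2 (adjusted p = 0.0458 and 0.0206, chi-square test). Sirt4 at 96.8, 92.9 and 124 had a similar SD but was not called (adjusted p = 0.0746, chi-square test). Hdac2 had 946, 1100.0 and 1260.4 and Kat2b had 877, 1158 and 1034, both lowest in replicate 1. Of the 37 members, 18 (48.6%) were lowest in replicate 1, against 35.9% of all genes that differed. Of these, 10 were also highest in replicate 3 (27% of the 37, against 21.1% of all genes that differed): Setd3, Hdac1, Hdac2, Setd2, Nsd3, Kmt2c, Kat6a, Kat6b, Kdm2a and Kdm5a. The summed markers of dividing cells, given above, were also lowest in replicate 1 and highest in replicate 3. Highest in replicate 1 and lowest in replicate 3 were 4 members (10.8%, against 23.9%): Hdac5, Prmt2, Kat2a and Setd4. The microglial sum was likewise highest in replicate 1 and lowest in replicate 3, and its highest library was 1.47 times its lowest. The fibroblast sum at 6638, 6496 and 6127 had that order with a range of only 1.08 times. The fibroblast list shares Pdgfra with the list of oligodendrocyte precursors. The mural sum, given above, had the order of dividing cells but was nearly flat. Its highest library was 1.02 times its lowest, against 1.21 times for dividing cells. The part of any cell population in these differences was not tested. The X-linked members did not share a pattern, with Hdac6 at 559.6, 581 and 513 and Hdac8 at 446, 403 and 503.

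**Figure D5:**
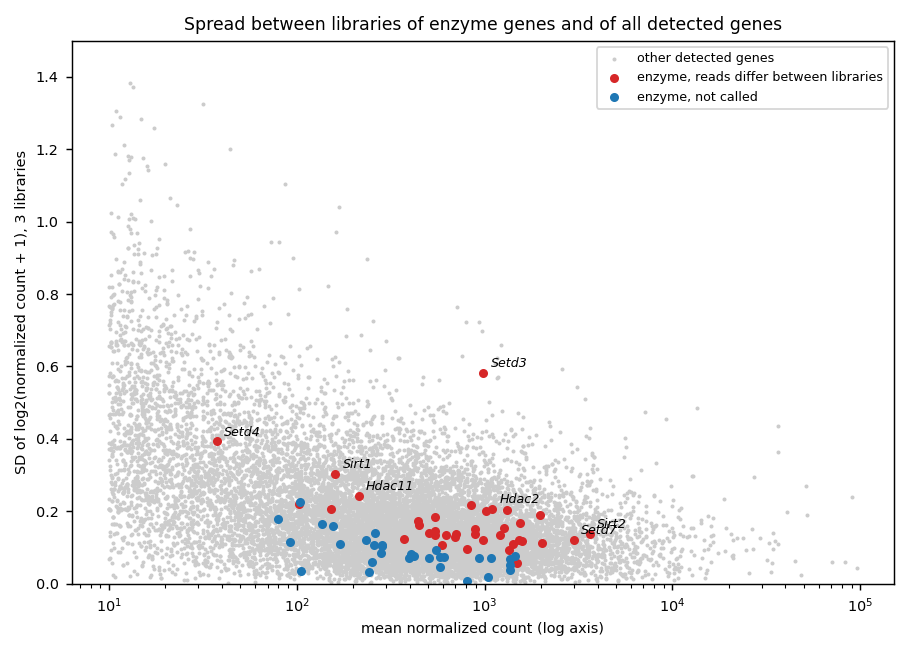
SD of log2(normalized count + 1) over 3 libraries against the mean normalized count (log axis), for enzyme genes (coloured by the chi-square call) and other detected genes in grey, of which 25 lie above the upper limit of the axis. Setd3 at 0.58 is the enzyme gene with the largest SD, and most enzymes lie within the grey cloud at 0.3 or less.

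Genes for other enzymes and for partners of these enzymes were taken from 5 lists, 87 genes in all, and every one was detected. Of the 87, 54 were called above the median gene and 21 below it (limma, per kb), where the background was 45.7% and 45.1%. Of 11 partners of the COMPASS methyltransferases, some common to all complexes and some particular to one, 10 were above the median gene and 1 below it. Of the enzyme genes, Kmt2c, Kmt2d, Setd1a and Setd1b were below it per kb, and Kmt2a and Kmt2b were not called. By reads Kmt2a, Kmt2b, Kmt2c and Kmt2d were called above, Setd1b was not called and Setd1a stayed below. Dpy30, a subunit common to all COMPASS complexes, stood at 339 ± 28.3 per kb, 2.24 ± 0.09 above the median gene, and Paxip1 was the lowest at 55.3 ± 3.35. Of 20 partners of the class I deacetylases, 16 were above and 2 below. The NuRD subunit gene Mbd3 led at 797 ± 113, and the CoREST subunit gene Rcor2 was the lowest at 7.73 ± 3.02. Of 9 PRC2 partners, 5 were above and 2 below, led by the histone-binding subunit gene Rbbp7 at 876 ± 49.0, which also serves deacetylase complexes, with Mtf2 the lowest at 18.6 ± 3.19. Acetyltransferase partners numbered 13 above and 6 below of 22, from Msl3 at 214 ± 12.2 to Jade1 at 19.8 ± 1.89. Of 25 other enzymes 10 were above and 10 below, from the H3K9 methyltransferase gene Ehmt2 at 398 ± 34.3 to Suv39h2 at 9.47 ± 1.67, also an H3K9 methyltransferase.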

How the data were processed

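The deposited table holds, per the file headers, 1 normalized count column per library (a signal) and the authors' mean, which was not tested. Per the submitters' processing notes DESeq2 was used and the build was mm10; the sources used here do not name the aligner, counting tool, strand setting or gene filter. All values (100%) were whole multiples of 1 read's worth within 0.05 reads, so reads were recovered. Exon lengths (union of exons) came from GENCODE vM21 for 99.5% of genes. Levels are log2(value + 1) minus log2 of kb. Each gene's difference from the library median was fitted with an intercept-only limma model (trended prior) over genes with a mean of 10 or more; for the comparison of libraries, a chi-square test set each gene's reads (30 or more in all) against library totals. limma 3.58.1, edgeR 4.0.16 (TMM) in R 4.3.3, Python 3.11.15, SciPy 1.17.1 and pandas 2.3.3 were used, and both tests were checked on simulated data.

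The labels call the libraries biological replicates, but p-values measure only the spread between these 3 libraries, and limma pools it over genes. The chi-square p-values and the 3-read limit cover counting error only. By the rule for named genes any member may be named; the 2 highest and the lowest detected per class, members with a mean under 10, all pairs and the 10 with the largest log2 SD (mean of 100 or more) are given, and of each partner list the highest and lowest. Kdm4dl joined the JmjC class after the table was seen. Prmt1, Neu4, Mog and Cldn5 were not analysed here. Members, classes and lists were chosen with earlier results of these data known. Alternatives were other pseudocounts (0.5 and 5), CPM, no length, the longest transcript, a minimum mean of 1, separate variances, other scalings and leaving out each library. Kdm5c, Kdm5d and Kdm6a were left out by the rule.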

Additional observations from a re-analysis of the deposited data

How the results depend on the processing

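No paired analysis was possible because there is 1 group. Pseudocounts, CPM and separate variances left 28 to 31 members above and 26 to 29 below the median gene, and leaving out 1 library 31 above and 26 to 28 below. A minimum mean of 1 lowers the median gene, so that all genes shifted by 0.72 on the log2 scale: 48 members were then above and 12 below, 9 partner genes were below, and Hdac10 (0.092), Hdac11 (0.35), Kat6b (0.28) and Nsd3 (0.31) lay above. The longest transcript as length gave 34 above and 23 below and turned Kat6b (0.23), Setd1a minus Setd1b (-0.17), Kmt5b minus Kmt5c (0.025) and Kdm3a minus Kdm3b (-0.17). No division by length turned Kat6b (1.35), Kmt5b (0.75), Nsd3 (1.36), Setd1b (0.10), Hdac1 minus Hdac2 (-0.15), Setd1a minus Setd1b (-0.62), Kmt5b minus Kmt5c (1.17) and Kdm3a minus Kdm3b (-0.56). Other pairs, beside those given above, kept their sign but moved over 1.5 times. By reads these included Hdac6 minus Hdac10 (1.82), Kmt2a minus Kmt2b (1.06) and Kat2a minus Kat2b (-1.003). With the longest transcript, Nsd1 minus Nsd2 (-0.95), Hdac1 minus Hdac2 (0.52), Kmt2c minus Kmt2d (1.18) and Sirt6 minus Sirt7 (-0.28) grew in size. Kdm5a minus Kdm5b (0.49), Nsd1 minus Nsd3 (0.26), Kat5 minus Kat8 (0.44) and Kmt2a minus Kmt2b (0.0999) shrank under that setting. With the longest transcript the calls of Sirt7, Prmt3, Hdac4, Kdm2b, Kdm5b and Nsd3 ended, and without replicate 2 that of Setd6. Under each of these length settings 9 of 14 class medians lay above that of all genes, in place of 5; the length itself enters the value. Of 37 members that differed between libraries, 24 to 29 were called with 1 library left out, which also leaves fewer reads, and 34 to 38 under the other scalings and filters. The alternatives for the partner genes were added after the data were seen. Depth limits Kdm4d, Kdm4dl and Setd4 most.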

Other observations

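Summed over genes, the classes took unequal parts of the enzyme transcripts per kb of exon. The 8 lysine acetyltransferases summed to 1159.8 ± 34.4 normalized counts per kb (SD, n = 3), the 14 JmjC demethylases to 1149 ± 10.7, the 4 class I deacetylases to 993 ± 64.3 and the 7 sirtuins to 987 ± 71.5, most of it Sirt2. The 8 H3K4 methyltransferases summed to 717 ± 27.6 and the 7 arginine methyltransferases to 672 ± 30.6. The enzymes of H3K36 reached 348 ± 31.2, those of H4K20 264 ± 25.2 and those of H3K27 116 ± 7.15. The sum over all 70 genes was 7619 ± 137.

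Single genes gave most of several classes. Kdm1a gave 87.3% ± 1.77 of the amine oxidase total per kb, Ezh2 69.7% ± 3.19 of the H3K27 total, Hdac6 67.3% ± 2.62 of class IIb and Kmt5a 60.4% ± 3.63 of the H4K20 total. Setd3 gave 41.3%, 56.8% and 61.4% of the further SET-domain genes in replicates 1, 2 and 3.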
